A study of Homo sapiens with 14 samples.

Results

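The genes described here carry out and control the synthesis of cholesterol and of fatty acids. They were taken from a list of 33 symbols, and a member was measured where a probe set of the array carried its symbol and no other. This held for 31 of the 33, each with 1 such probe set, among 18372 genes measured in all. FDFT1, which makes squalene, and HSD17B7, whose probe set is shared with a pseudogene copy, were not analysed here. By role, the measured members were 7 genes of the mevalonate arm, 2 of the steps from squalene to lanosterol and 7 that turn lanosterol into cholesterol. The rest were 6 of sterol sensing and transport, 4 of fatty acid synthesis and 5 of elongation and desaturation.

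Expression had been measured by biotin-labelled arrays in 7 established human prostate cancer cell lines, each on 2 arrays made from different passages in culture (replicates 1 and 2). Clone 1 and Clone 3 each grew from a single cell of PC3-ML. PC3-N, like PC3-ML, is a subline of PC3 cells, and PC3-N(PDGFRα) is PC3-N overexpressing platelet-derived growth factor receptor alpha. DU-145 (PDGFRα) overexpresses the same receptor in DU-145. The labels call Clone 1, Clone 3, PC3-ML and PC3-N(PDGFRα) bone metastatic, and PC3-N, DU-145 (PDGFRα) and DU-145 not. All 7 grew in the same medium, DMEM with fetal bovine serum and gentamicin. Each clone is 1 line, an empty-vector line was not analysed here, and the sources used here do not give the promoter that drove the receptor.

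Values are the authors' RMA intensities. They ran from 18.5 to 8654 over all arrays, with array medians between 29.9 and 31.6. Low intensities are compressed toward a floor, so differences there are low estimates. The 2 arrays of a line correlated at 0.989 to 0.996 across genes, which are not independent replicates. PDGFRA itself read 817.4 and 850.4 in PC3-N(PDGFRα) against 103.3 and 109.4 in PC3-N. It read 129.6 and 92.2 in DU-145 (PDGFRα) against 28.2 and 25.5 in DU-145. In Clone 1 it was near the floor, at 31.0 and 26.5, against 104.1 and 155.5 in PC3-ML. Of the 5 epithelial markers, KRT8 lay between 206.9 and 791.3, EPCAM between 434.1 and 1747 and KRT19 between 281.3 and 730.9. KRT18 ran from 36.3 in PC3-ML to 308.7 in Clone 1, and CDH1 was near the floor on PC3 arrays (25.0 to 33.9), and at 43.6 or above on DU-145 arrays. The prostate luminal markers KLK2 (27.3 to 33.9) and KLK3 (24.2 to 29.6) stayed near the floor on every array. The third, HOXB13, read 85.4 to 259.9 on PC3 arrays and 29.0 to 39.9 on DU-145 arrays, and the endothelial gene PECAM1 36.9 to 104.6 and 20.7 to 23.2. The other endothelial genes, VWF (21.8 to 23.6) and CDH5 (22.5 to 25.5), stayed near the floor on every array. Near the floor throughout were also the fibroblast genes DCN and LUM and the leukocyte genes PTPRC and CD3E, all between 19.6 and 23.9. The fibroblast genes COL1A1 (44.0 to 51.8) and COL1A2 (31.83 to 39.95) read higher on every array, as did the leukocyte gene CD14 (24.6 to 30.9). The adipocyte genes ADIPOQ, PLIN1, LEP and CIDEC lay between 21.7 and 35.4. CTNNA1, known to be deleted in PC3, read 22.3 to 24.9 in PC3 lines and 138.0 to 282.2 in DU-145 lines.

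Cells build cholesterol from acetyl-CoA through mevalonate, isoprenoid units, squalene and lanosterol, and build fatty acids from the same acetyl-CoA through malonyl-CoA. When sterols run low, SCAP carries the SREBP transcription factors out of the endoplasmic reticulum for cleavage, and the released fragments switch on genes of both pathways. When sterols are plentiful, INSIG proteins hold SCAP back. In prostate cells both pathways are known to respond to androgen, and fatty acid synthesis is known to be raised in many prostate tumours.

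SREBPs are known to bind sterol regulatory elements and E-boxes together with the factors NF-Y and Sp1. The promoters below, from 250 bases before to 50 after the RefSeq transcription start (GRCh38.p14), belong to 5 of the members called most often in the comparisons that follow. ACAT2, called oftener than these, has no promoter entry among those used. They are shown 5′ to 3′ on the gene's own strand. Capitals mark TCACNCCAC (a sterol regulatory element), CACGTG (an E-box), CCAAT (the NF-Y box) and GGGCGG (the Sp1 box), each on either strand. STARD4 lies at chr5:111512486-111512785 on the minus strand, SC5D at chr11:121292521-121292820 on the plus strand and EBP at chrX:48521558-48521857 on the plus strand. FADS1 lies at chr11:61816954-61817253 on the minus strand and NSDHL at chrX:152830813-152831112 on the plus strand.
STARD4: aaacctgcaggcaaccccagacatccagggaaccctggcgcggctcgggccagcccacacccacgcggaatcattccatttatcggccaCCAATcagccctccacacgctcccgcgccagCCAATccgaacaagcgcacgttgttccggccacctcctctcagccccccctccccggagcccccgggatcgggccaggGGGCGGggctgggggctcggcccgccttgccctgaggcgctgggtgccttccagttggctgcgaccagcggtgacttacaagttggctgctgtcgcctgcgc
SC5D: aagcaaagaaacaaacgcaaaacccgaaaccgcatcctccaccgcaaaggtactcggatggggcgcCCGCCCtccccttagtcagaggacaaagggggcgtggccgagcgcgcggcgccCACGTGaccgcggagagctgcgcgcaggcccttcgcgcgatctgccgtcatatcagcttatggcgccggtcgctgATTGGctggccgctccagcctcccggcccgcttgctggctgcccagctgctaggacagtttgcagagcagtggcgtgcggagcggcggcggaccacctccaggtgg
EBP: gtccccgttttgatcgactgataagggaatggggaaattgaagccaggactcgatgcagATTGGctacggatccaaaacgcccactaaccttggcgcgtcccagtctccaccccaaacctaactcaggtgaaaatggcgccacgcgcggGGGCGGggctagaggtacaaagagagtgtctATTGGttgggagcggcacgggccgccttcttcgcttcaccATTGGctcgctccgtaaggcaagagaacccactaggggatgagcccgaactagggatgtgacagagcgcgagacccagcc
FADS1: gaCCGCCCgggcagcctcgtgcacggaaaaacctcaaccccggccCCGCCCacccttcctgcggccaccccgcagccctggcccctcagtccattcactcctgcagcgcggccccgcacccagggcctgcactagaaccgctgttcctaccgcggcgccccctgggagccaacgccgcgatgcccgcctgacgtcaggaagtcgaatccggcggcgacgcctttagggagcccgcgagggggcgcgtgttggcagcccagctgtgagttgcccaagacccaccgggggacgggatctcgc
NSDHL: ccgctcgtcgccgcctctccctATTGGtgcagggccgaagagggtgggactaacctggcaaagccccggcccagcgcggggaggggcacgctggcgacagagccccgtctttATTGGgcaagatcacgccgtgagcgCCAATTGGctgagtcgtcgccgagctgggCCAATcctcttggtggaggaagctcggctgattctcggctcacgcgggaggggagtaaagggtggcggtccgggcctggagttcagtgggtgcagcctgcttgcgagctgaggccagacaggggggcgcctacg
NSDHL had 5 matches to the NF-Y box, on both strands and one pair overlapping, and none to the other motifs. EBP had 3 NF-Y boxes and 1 Sp1 box, and STARD4 had 2 and 1. SC5D had 1 E-box, 1 NF-Y box and 1 Sp1 box, and FADS1 had 2 Sp1 boxes alone.

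Over the 29 listed genes with a promoter entry, 19 held an NF-Y box (65.5%, against 34.6% of all 35116 promoters of this length and 34.7% of the 22198 of protein-coding genes). An Sp1 box was found in 26 (89.7%, against 45.0% of all and 56.3% of coding promoters). An E-box was found in 5 (17.2%, against 7.26% and 8.34%) and the sterol regulatory element in SREBF2 alone (3.45%, against 1.13% in both sets). The SREBF2 match read TCACCCCAC, from base -133 to base -125 with the start at 0. These are matches of letters and were not tested as sites.

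**Figure D1:**
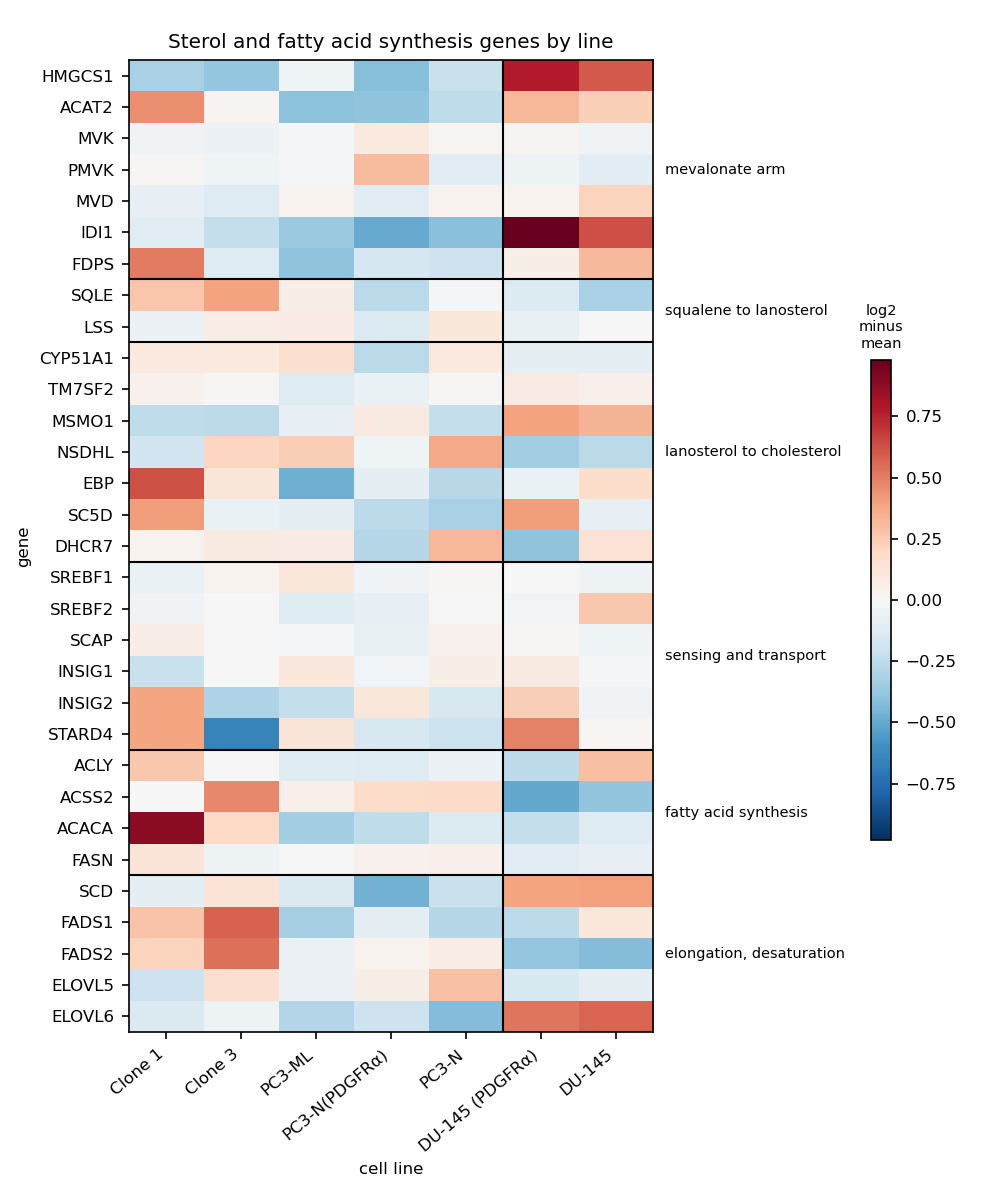
Line means of each of the 31 measured genes, as log2 intensity minus the gene's own mean over the 7 lines (colour), with genes grouped by role in rows and lines in columns. HMGCS1, IDI1 and ELOVL6 are reddest in the 2 DU-145 lines to the right of the black line, and ACAT2, FDPS, EBP and ACACA in Clone 1.

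The range of the 7 line means had a median of 0.71 on the log2 scale over the 31 genes, against 0.31 over all genes, and 5 members spanned 2-fold or more. Among genes with a mean log2 intensity of at least 5, the median range was 0.71 over 30 members and 0.57 over 10590 genes. IDI1, the isomerase that interconverts the 5-carbon isoprenoid units, had the widest range at 1.47, or 2.77-fold. ACACA (1.22), HMGCS1 (1.20), STARD4 (1.14) and EBP (1.10) followed. The narrowest ranges were those of SCAP (0.14), MVK (0.16), SREBF1 (0.17), TM7SF2 (0.21) and FASN (0.23). Of these, SCAP, MVK, SREBF1 and FASN had every line mean under 40, as did LSS, so little of a difference could have been seen in them. They include the fatty acid synthase itself and both SCAP and its cargo SREBF1.

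No line was highest throughout. Clone 1 had the highest mean in 7 genes, Clone 3 in 4, PC3-ML in 3, PC3-N(PDGFRα) in 2, PC3-N in 4, DU-145 (PDGFRα) in 6 and DU-145 in 5. By a moderated F test over the 7 lines (limma, Benjamini-Hochberg adjusted over all genes), 14 of the 31 differed between lines beyond the spread between passages at an adjusted p under 0.05. This is 45.2%, against 38% of all genes. The same threshold is used throughout, and a gene past it is said to be called. Since both arrays of a line come from passages of that line, every such p but that for the bone label is set against how passages of 1 line vary, which says nothing of how independent lines would. A mean log2 intensity of at least 5 was reached by 30 of the 31 members, but by 10590 of all 18372 genes. Shares of all genes called, here and below, thus include many genes near the floor and were not matched for intensity.

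Between the cell backgrounds, 4 of 7 mevalonate genes were lower in the PC3 lines, HMGCS1 and IDI1 by the most. Of 31 members, 14 were called between the 5 PC3 lines and the 2 DU-145 lines (45.2%, against 38.8% of all genes), so the share as a whole was near the background. The PC3 lines were higher in 5 and lower in 9, where 22.3% and 16.5% of all genes were called higher and lower. In the mevalonate arm 0 of 7 were called higher, and of the 3 not called 2 had higher values. In the steps from lanosterol to cholesterol, 1 of 7 was higher and 2 lower. In fatty acid synthesis 2 of 4 were higher, and in elongation and desaturation 1 of 5 was higher and 2 lower. The median log2 change was -0.02 for the members and -0.01 for all genes. After quantile normalization the members' median was -0.15.

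HMGCS1, the synthase that commits acetyl units to mevalonate, read at lowest 272.1, at median 330.3 and at highest 398.0 on the 10 PC3 arrays. It read 853.2 and 573.4 in DU-145 (PDGFRα) and 691.7 and 550.1 in DU-145. Every PC3 array lay below every DU-145 array, and the log2 change was -0.96 (SE 0.11, adjusted p = 5.03e-05). IDI1 read 84.8, 103.7 and 128.1 as the lowest, median and highest of the PC3 arrays. In DU-145 (PDGFRα) it read 300.8 and 224.3, and in DU-145 223.9 and 184.9. Its groups did not overlap either, with a log2 change of -1.13 (SE 0.09, adjusted p = 3.83e-06). The DU-145 passages of both genes were wide apart, replicate 1 being the higher in both lines.

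The other called mevalonate genes were ACAT2, which joins 2 acetyl-CoA molecules, and MVD, which makes isopentenyl diphosphate. ACAT2 had a log2 change of -0.39 (SE 0.06, adjusted p = 0.000420), and its arrays overlapped. The overlap came from Clone 1, whose 2 arrays read 556.2 and 535.4, above all DU-145 arrays (457.8 to 532.0). MVD differed by -0.17 (adjusted p = 0.0339), at 39.2 to 49.3 on PC3 arrays and 41.8 to 53.9 on DU-145 arrays. These values overlap and lie near the floor, and the call was lost under 10 of 19 alternatives. FDPS, which makes farnesyl diphosphate and for which further probe sets are shared with a pseudogene, read 365.6 at lowest, 543.7 at median and 936.5 at highest on PC3 arrays. The DU-145 arrays ran from 556.9 to 789.6, within that span, and FDPS was not called (log2 change -0.27, adjusted p = 0.0978). It was called lower after quantile normalization (-0.33, adjusted p = 0.0318) and without PC3-ML replicate 2 (-0.32, adjusted p = 0.0233). It was called lower, too, among genes with mean log2 of at least 5 (adjusted p = 0.0437) and with an intensity trend (adjusted p = 0.0487).

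Later sterol steps did not go one way. MSMO1, the methyl sterol oxidase, was lower in the PC3 lines (log2 change -0.51, SE 0.13, adjusted p = 0.0101), as was SC5D, a desaturase near the end of the pathway (-0.23, SE 0.07, adjusted p = 0.0293). NSDHL, which acts beside MSMO1 in removing the same methyl groups, was higher (0.42, SE 0.07, adjusted p = 0.000594). SQLE, the epoxidase that oxygenates squalene, was higher too (0.32, SE 0.07, adjusted p = 0.00335). STARD4, which carries cholesterol between membranes, was lower (-0.36, SE 0.12, adjusted p = 0.0343). INSIG1, whose transcript is known to follow SREBP activity, read 55.3 at lowest, 69.3 at median and 89.0 at highest on PC3 arrays and 60.9 to 89.1 on DU-145 arrays, and was not called.

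Among the fatty acid genes, ACSS2, which makes acetyl-CoA from acetate, was higher in PC3 lines. The lowest, median and highest PC3 arrays read 69.2, 79.3 and 107.9. DU-145 (PDGFRα) read 46.9 and 59.5 and DU-145 60.8 and 53.4, below every PC3 array (log2 change 0.62, SE 0.11, adjusted p = 0.000910). ELOVL6, the elongase of saturated chains, went the other way, at 31.6, 38.2 and 43.5 on PC3 arrays. It read 65.9 and 58.0 in DU-145 (PDGFRα) and 58.0 and 70.3 in DU-145 (log2 change -0.77, SE 0.07, adjusted p = 8.83e-06). The PC3 values lie near the floor, so the difference is a low estimate.

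SCD, the desaturase that makes oleate, was lower in PC3 lines (-0.55, SE 0.14, adjusted p = 0.0106), while FADS2, which desaturates polyunsaturated chains, was higher (0.57, SE 0.15, adjusted p = 0.0130). FASN was called higher by 0.13 (adjusted p = 0.0156), all its arrays lying between 30.0 and 36.5. HMGCS1, IDI1, ELOVL6 and ACSS2 were the 4 members whose PC3 and DU-145 arrays did not overlap (12.9%, against 17.5% of all genes). ACAT2, ACSS2, ELOVL6, HMGCS1, IDI1, NSDHL and SQLE kept their call under all 19 alternatives. MVD and STARD4 lost it under 10 each, SC5D under 5, FASN under 3 and FADS2, MSMO1 and SCD under 1 each. Without DU-145 (PDGFRα) replicate 1, 9 members were called.

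**Figure D2:**
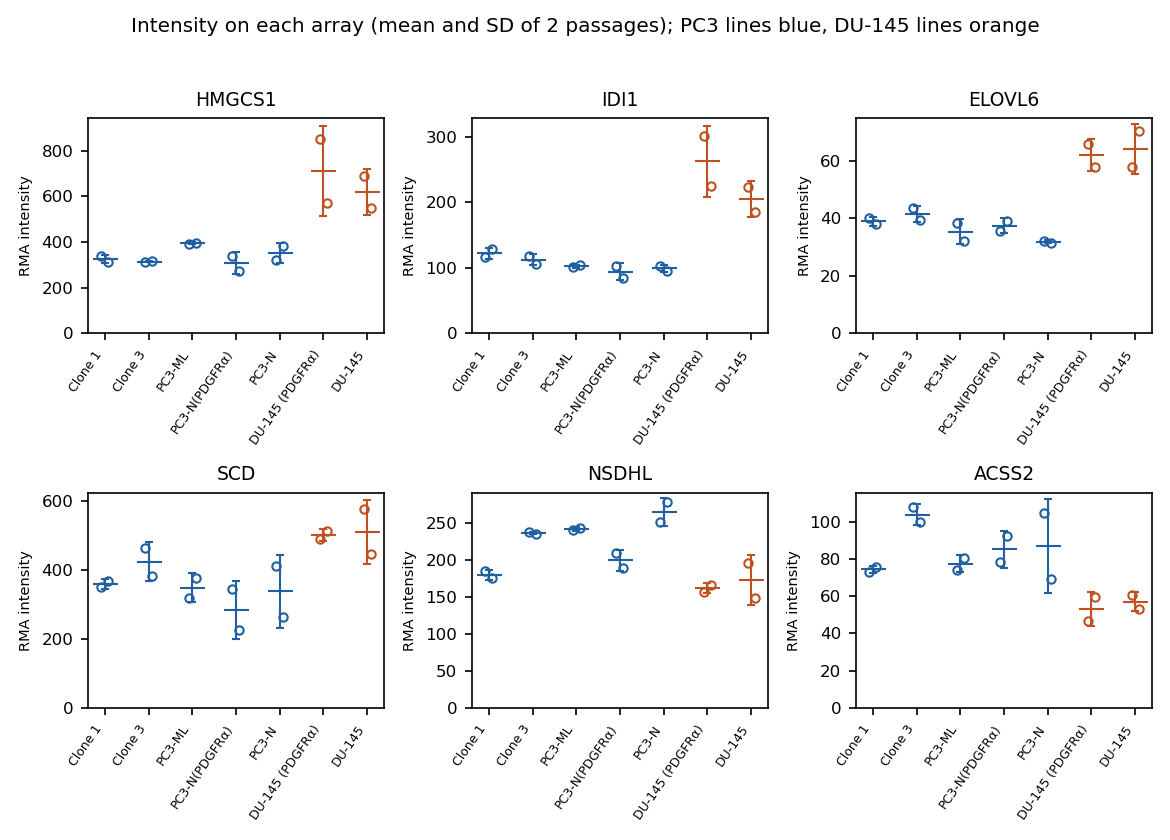
RMA intensity of 6 genes on each of the 14 arrays (points), with the mean and SD of the 2 passages of each line, PC3 lines in blue and DU-145 lines in orange. The PC3 arrays lie below all DU-145 arrays for HMGCS1, IDI1 and ELOVL6, and above them for ACSS2; SCD and NSDHL overlap.

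The 2 single-cell clones were compared with PC3-ML and with each other. Both comparisons with PC3-ML use the same 2 PC3-ML arrays, so they are not independent. In Clone 1, 8 of 31 members were called, 7 that rose and 1 that fell (25.8%, against 13.8% of all genes, 9.01% called higher and 4.77% lower). In Clone 3, 4 were called, 3 that rose and 1 that fell (12.9%, against 8.1% of all genes, 5.2% called higher and 2.9% lower). The shares of all genes include many near the floor, so they do not show whether the members were called more often than genes of like intensity. The median log2 change was 0.08 over the members and -0.02 over all genes in Clone 1, and 0.03 and -0.01 in Clone 3. ACAT2, EBP and FADS1 were called higher in each clone. In these, as in FDPS and ACACA, PC3-ML had the lowest mean of the 7 lines. INSIG2 and SC5D, also called higher in Clone 1, were lowest in Clone 3 and PC3-N. PC3-ML was the lowest line in 7 members, more than any other line, and the highest in 3. Whether a clone was raised or PC3-ML was low was not tested.

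In the mevalonate arm, ACAT2 read 556.2 and 535.4 in Clone 1 and 433.7 and 378.3 in Clone 3, against 279.7 and 322.2 in PC3-ML. The clones' arrays all lay above those of PC3-ML, and those of Clone 1 above those of Clone 3. The log2 change was 0.86 in Clone 1 (SE 0.10, adjusted p = 0.000589) and 0.43 in Clone 3 (SE 0.10, adjusted p = 0.0285). FDPS read 736.9 and 936.5 in Clone 1 and 545.5 and 525.1 in Clone 3, against 365.6 and 542.3 in PC3-ML. It rose in Clone 1 (0.90, SE 0.19, adjusted p = 0.0125), while Clone 3 overlapped PC3-ML (0.27, adjusted p = 0.533). HMGCS1 was not called in either clone, at -0.27 (adjusted p = 0.428) in Clone 1 and -0.33 (adjusted p = 0.371) in Clone 3.

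From lanosterol on, EBP, the isomerase that shifts a double bond in the sterol ring, read 600.2 and 669.5 in Clone 1 and 444.2 and 450.0 in Clone 3. PC3-ML read 249.7 and 349.1, its passages farther apart than those of either clone. EBP rose by 1.10 in Clone 1 (SE 0.15, adjusted p = 0.00104) and by 0.60 in Clone 3 (SE 0.15, adjusted p = 0.0334). SC5D read 135.6 and 141.8 in Clone 1, against 97.1 and 98.2 in PC3-ML, with Clone 3 at 101.8 and 97.8. It rose in Clone 1 by 0.51 (SE 0.12, adjusted p = 0.0227). NSDHL was the 1 member that fell in Clone 1. It read 184.9 and 175.2 there, against 240.1 and 243.6 in PC3-ML (-0.43, SE 0.11, adjusted p = 0.0335), and 237.3 and 234.9 in Clone 3. In Clone 3 neither SC5D (0.03, adjusted p = 0.950) nor NSDHL (-0.03, adjusted p = 0.937) was called.

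Among the sensing and transport genes, INSIG2 read 209.9 and 233.2 in Clone 1, against 148.7 and 139.6 in PC3-ML, and rose by 0.62 (SE 0.10, adjusted p = 0.00329). INSIG2, like INSIG1, retains SCAP in the endoplasmic reticulum. INSIG1 read 56.7 and 64.5 in Clone 1, against 72.3 and 79.1 in PC3-ML, a log2 change of -0.32 (adjusted p = 0.520). STARD4 fell in Clone 3, to 75.0 and 56.6, against 109.5 and 114.7 in PC3-ML (-0.78, SE 0.20, adjusted p = 0.0400). In Clone 1 it read 134.4 and 133.2, above both PC3-ML arrays, without being called (0.26, adjusted p = 0.513).

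ACACA, the acetyl-CoA carboxylase that makes malonyl-CoA, read 219.8 and 260.8 in Clone 1, against 91.3 and 115.8 in PC3-ML. It had the largest log2 change of the members in Clone 1 (1.22, SE 0.22, adjusted p = 0.00561). In Clone 3 it read 135.5 and 162.9 (0.53, adjusted p = 0.211). FASN, the next enzyme, lay near the floor in all 3 lines, between 31.4 and 36.5. FADS1, a desaturase of polyunsaturated chains, read 265.3 and 236.9 in Clone 1 and 308.3 and 307.0 in Clone 3, against 156.3 and 173.4 in PC3-ML. It rose by 0.61 in Clone 1 (SE 0.14, adjusted p = 0.0201) and by 0.90 in Clone 3 (SE 0.14, adjusted p = 0.00542). Its neighbour FADS2 was not called, at 0.27 (adjusted p = 0.618) in Clone 1 and 0.59 (adjusted p = 0.220) in Clone 3.

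Set against each other, Clone 1 was higher than Clone 3 in 4 members and lower in 0 (12.9% called, against 10.5% of all genes, 5.85% higher and 4.63% lower). They were STARD4 (log2 change 1.04, SE 0.20, adjusted p = 0.00846), INSIG2 (0.69, SE 0.10, adjusted p = 0.00238), SC5D (0.48, SE 0.12, adjusted p = 0.0362) and ACAT2 (0.43, SE 0.10, adjusted p = 0.0232). After quantile normalization 5 were higher and 1 lower. FDPS (0.63, adjusted p = 0.0713), ACACA (0.69, adjusted p = 0.0906), EBP (0.50, adjusted p = 0.0568) and NSDHL (-0.39, adjusted p = 0.0578) were not called, although each was called in Clone 1 against PC3-ML.

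Replicate 1 of PC3-ML was the lower array of that line for 27 of the 31 members. Without it, several calls in Clone 1 and every call in Clone 3 were lost. Leaving out any array of a compared line lowered the calls over all genes too. A lost call is therefore not particular to this array or to the members. In Clone 1, ACAT2, EBP and INSIG2 were called under all 9 alternatives. ACACA and FDPS lost the call without PC3-ML replicate 1 (adjusted p = 0.0576 and 0.0982) and without Clone 1 replicate 2 (0.0530 and 0.108). FADS1 lost it without either of the Clone 1 arrays or PC3-ML replicate 1, and SC5D and NSDHL without any of the 4 arrays. In Clone 1, 3 members were called without replicate 2 and 5 without replicate 1 of that line. In Clone 3, FADS1 lost its call under 1 alternative, without PC3-ML replicate 1 (adjusted p = 0.0567), ACAT2 under 2 and EBP and STARD4 under 4 each. Without replicate 1 of Clone 3, 1 member was called, and without its replicate 2, 2 were. Between the clones INSIG2 kept its call under all 9. The count there was 1 without either Clone 1 array or without Clone 3 replicate 2.

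**Figure D3:**
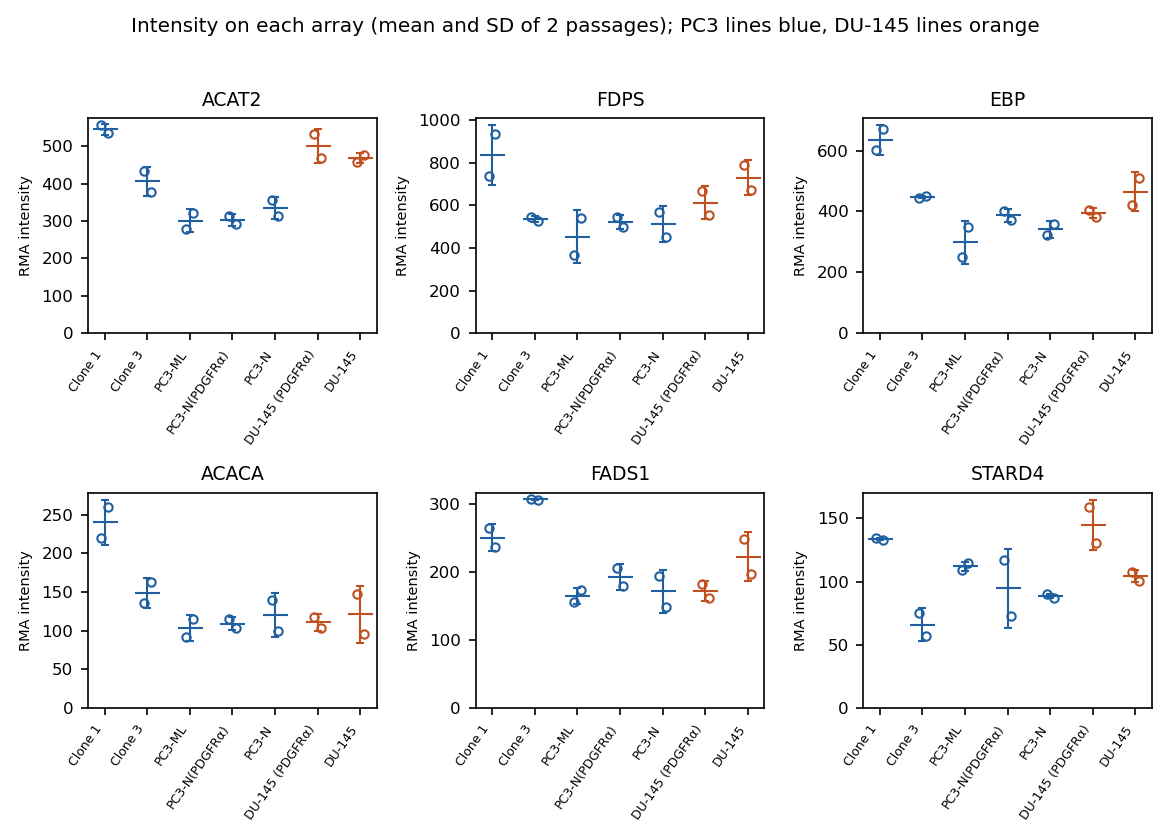
RMA intensity of 6 genes on each of the 14 arrays (points), with the mean and SD of the 2 passages of each line, PC3 lines in blue and DU-145 lines in orange. Both clones lie above PC3-ML for ACAT2, EBP, ACACA and FADS1, and the 2 clones lie on either side of PC3-ML for STARD4.

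**Figure D4:**
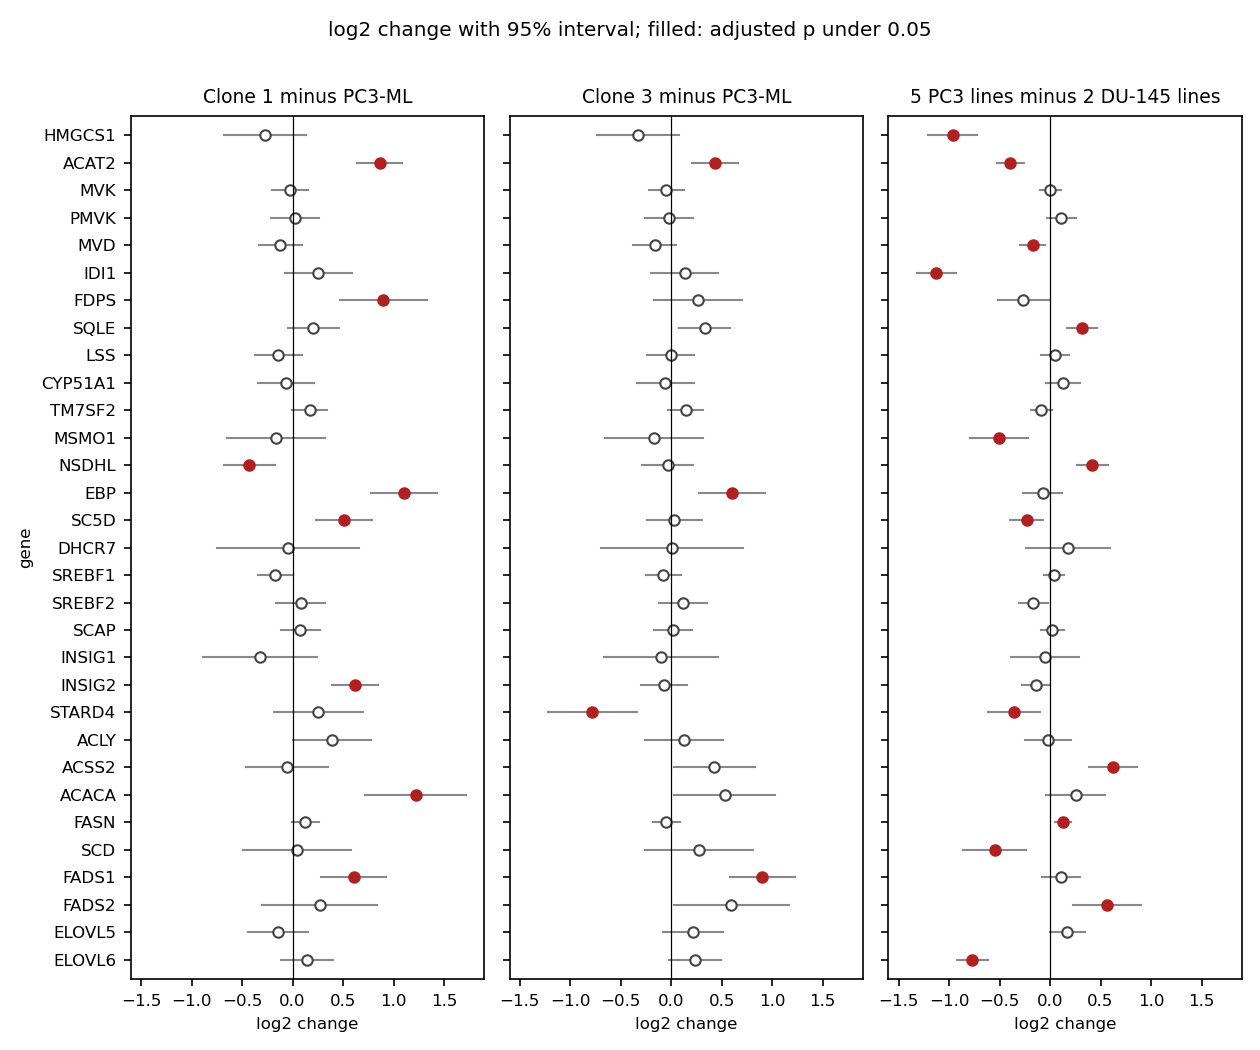
Log2 change of each of the 31 genes with its 95% interval in 3 panels: Clone 1 minus PC3-ML, Clone 3 minus PC3-ML, and PC3 lines minus DU-145 lines. Filled points have an adjusted p under 0.05: 8, 4 and 14 genes.

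Between PC3-ML, labelled bone metastatic, and PC3-N, labelled not, 0 of the 31 members were called by limma, where 0.348% of all genes were. The members' log2 changes ran from -0.34 to 0.34 with a median of -0.05, against -0.01 for all genes. At an unadjusted p under 0.05 there was 1, ELOVL5, an elongase of polyunsaturated chains. It read 415.1 and 426.3 in PC3-ML against 564.4 and 505.7 in PC3-N, a log2 change of -0.34 (adjusted p = 0.379). The 95% interval of such a change between a pair of lines had a median half-width of 0.28 on the log2 scale, from 0.13 for FASN to 0.70 for DHCR7. Changes below that size would mostly not have been seen with 2 arrays a line. Larger ones could be missed too, as that of ELOVL5 was not called, since the intervals are not adjusted over all genes.

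With overexpression of PDGFRα, 0 members were called in the PC3-N pair and 0 in the DU-145 pair (limma, 2.2% and 0.31% of all genes). In PC3-N(PDGFRα) against PC3-N, 4 members had an unadjusted p under 0.05. For pairs of lines the share of all genes under that unadjusted threshold was not counted here. Such numbers therefore do not set the members apart from other genes. PMVK, the kinase that phosphorylates phosphomevalonate, read 124.4 and 114.7 against 92.4 and 87.8 in PC3-N (log2 change 0.41, adjusted p = 0.0966). NSDHL (-0.41, adjusted p = 0.110), CYP51A1 (-0.36, adjusted p = 0.208) and INSIG2 (0.27, adjusted p = 0.257) were the others. CYP51A1 demethylates lanosterol. Values were lower for 21 members and higher for 10, with a median log2 change of -0.08 against 0.00 for all genes. PMVK was called after quantile normalization (0.43, adjusted p = 0.0429), and INSIG2 without replicate 2 of PC3-N(PDGFRα) (0.45, adjusted p = 0.0400).

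In DU-145 (PDGFRα) against DU-145, 7 members had an unadjusted p under 0.05, again with no count over all genes. SC5D read 145.8 and 132.4 against 109.1 and 89.4 in DU-145 (log2 change 0.49, adjusted p = 0.131). ACLY, which makes acetyl-CoA from citrate, read 89.7 and 94.5 against 167.9 and 108.0 in DU-145 (-0.55, adjusted p = 0.213). The others were IDI1, STARD4 and INSIG2 with higher values and SREBF2 and FADS1 with lower ones, at adjusted p from 0.288 to 0.355. Without DU-145 replicate 2, ACLY (-0.87, adjusted p = 0.0128) and DHCR7 (-1.17, adjusted p = 0.0144) were called lower. The effects of overexpression in the 2 backgrounds were tested for a difference, and 0 members were called (limma, 0.533% of all genes). At an unadjusted p under 0.05 there were 4, here too with no count over all genes.

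For the label of bone metastasis itself, line means of the 4 bone-metastatic lines were set against those of the 3 others, so that the p measures the spread between lines. No member was called and no gene of the array was (0%). At an unadjusted p under 0.05 there were 2 members and 2250 genes. HMGCS1 had a log2 change of -0.68 (95% interval -1.27 to -0.08, adjusted p = 0.405) and MVD one of -0.17 (adjusted p = 0.405). All 4 bone-metastatic lines are PC3 lines, while 2 of the 3 others are DU-145 lines, so label and background are largely joined. Within the PC3 background, HMGCS1 differed by -0.07 between the 4 bone-metastatic lines and PC3-N (95% interval -0.51 to 0.36), IDI1 by 0.11, against -0.70 over the 7 lines (adjusted p = 0.420), and 0 members had an unadjusted p under 0.05. These lines derive from each other and are not independent.

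The passages of a line differed more in these genes than in genes at large. The median SD between passages was 0.140 on the log2 scale over the members and 0.093 over all genes. Among genes with a mean log2 intensity of at least 5 it was 0.144 over 30 members and 0.122 over 10590 genes. In DU-145, 24 of 31 members were higher in replicate 1 than in replicate 2, and 16.1% differed by 0.5 or more on the log2 scale, against 3.32% of all genes. DHCR7, the reductase that completes cholesterol, read 259.6 in replicate 1 and 108.3 in replicate 2 of DU-145, the widest gap among the members. In PC3-N the share was 9.68%, against 1.85%, in PC3-N(PDGFRα) 9.68%, against 0.621%, and in DU-145 (PDGFRα) 6.45%, against 1.73%. In PC3-ML it was 3.23%, against 0.914%. In Clone 1 and Clone 3 no member differed so far, against 0.370% and 0.680% of all genes. These shares of all genes include many genes near the floor and were not matched for intensity.

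The members moved between passages in partly the same direction. INSIG1, a known SREBP target, was chosen as the gene to compare with after its values were seen. Of the other 30 members, 13 differed between passages in the direction of INSIG1 in at least 6 of the 7 lines (43.3%, against 10.9% of all other genes). The other genes include many near the floor, and a set matched for intensity was not counted here. IDI1, FDPS, MSMO1, PMVK and SREBF2 did so in all 7, and HMGCS1 in 4. ELOVL6 did so in 3, MVD and INSIG2 in 2 each and MVK in 1. INSIG1 read 86.3 and 55.3 in PC3-N(PDGFRα) and 89.0 and 60.0 in PC3-N. The DU-145 lines read 89.1 and 62.6 with the receptor and 79.6 and 60.9 without, and replicate 1 was the higher in all 4 lines. Replicate 1 was the higher in Clone 3 as well, where INSIG1 read 75.0 and 66.3. In PC3-ML it read 72.3 and 79.1 and in Clone 1 56.7 and 64.5, replicate 2 being the higher. A replicate number stands for a passage of that line, and the labels give it no meaning shared between lines. The genes share each passage's 2 arrays, so this is a description with no test.

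**Figure D5:**
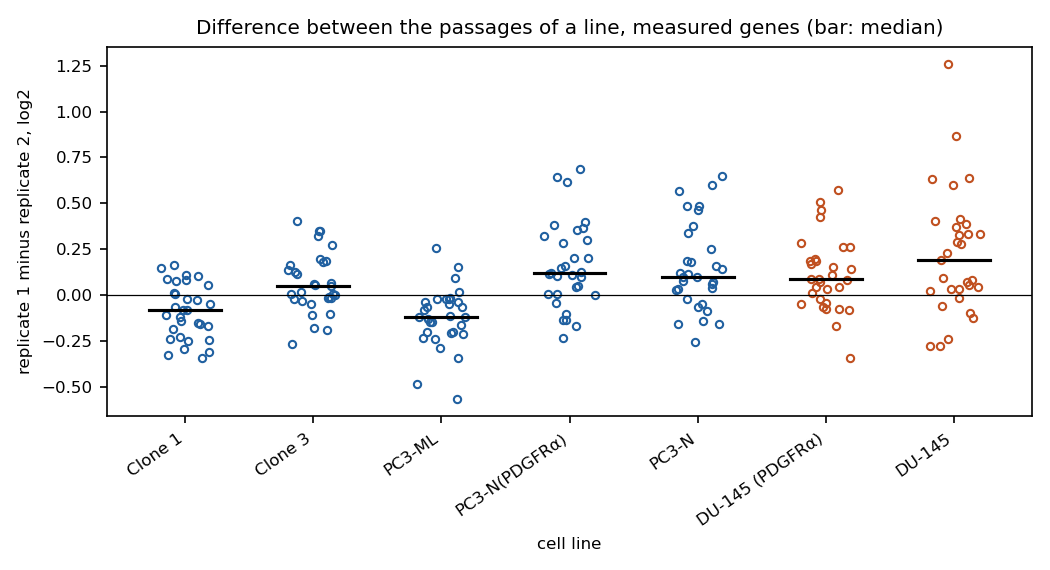
Log2 intensity of replicate 1 minus replicate 2 for each of the 31 genes in each line (points), with the median as a bar. The medians run from -0.12 in PC3-ML to 0.19 in DU-145, and the highest point is DHCR7 in DU-145 at 1.26.

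Other genes of lipid metabolism, in a list of 50 of which 46 were measured, were also called in the clones and between backgrounds. In Clone 1 against PC3-ML, 9 rose and 2 fell (23.9%, against 13.8% of all genes), and in Clone 3 against PC3-ML, 8 rose and 2 fell (21.7%, against 8.1%). Here too the shares of all genes were not matched for intensity. MBTPS1, the protease that makes the first cut in SREBPs, rose in both clones, by 0.82 in Clone 1 (adjusted p = 0.00580) and by 0.81 in Clone 3 (adjusted p = 0.0108). It read 138.0 and 154.9 in Clone 1 and 150.1 and 141.3 in Clone 3, against 69.6 and 98.8 in PC3-ML. ELOVL2, an elongase of very long polyunsaturated chains, fell in Clone 1 to 35.8 and 42.3, against 136.0 and 121.2 in PC3-ML (-1.72, adjusted p = 3.19e-05). NPC1, which releases cholesterol from lysosomes, rose in Clone 3 (0.97, adjusted p = 0.0347).

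Of 7 genes of fatty acid oxidation, the opposite process, 2 rose in Clone 1 (where 9.01% of all genes did) and 4 in Clone 3 (where 5.2% did), and 0 fell in either. CPT1A, which admits fatty acids to mitochondria, read 102.5 and 98.4 in Clone 1 and 114.5 and 107.0 in Clone 3, against 58.2 and 67.8 in PC3-ML. Its log2 change was 0.68 in Clone 1 (adjusted p = 0.00146) and 0.82 in Clone 3 (adjusted p = 0.00135). ACADVL rose in Clone 3 by 0.81 (adjusted p = 0.0128). Between backgrounds, 14 of the 46 were higher in the PC3 lines and 10 lower (52.2%, against 38.8% of all genes, 22.3% higher and 16.5% lower). VLDLR, a lipoprotein receptor, read between 22.9 and 24.5 on PC3 arrays, near the floor, and between 118.9 and 219.5 on DU-145 arrays (-2.71, adjusted p = 5.79e-10). In PC3-ML against PC3-N ELOVL2 alone was called (0.83, adjusted p = 0.0142), and in DU-145 (PDGFRα) against DU-145 VLDLR alone (-0.64, adjusted p = 0.0405). In PC3-N(PDGFRα) against PC3-N and for the bone label 0 of the 46 were called by limma, with 6 and 8 at an unadjusted p under 0.05. For the bone label 2250 of all genes passed that threshold, and for the PC3-N pair all genes were not counted.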

How the data were processed

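Total RNA from 7 cell lines, 2 passages each, was hybridised to 14 arrays, with biotin-labelled target, per the labels. The deposited values were RMA intensities made by the authors, who named RMA per the submitters' processing notes; the sources used here give no version. RMA subtracts background, equalises probe distributions between arrays and summarises each probe set. Intensities were read as linear from their values and converted to log2 with no pseudocount and no filter on low values.

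Of 28829 probe sets, 19291 carried 1 gene symbol, 1735 several and 7803 none; 19260 identifiers matched RefSeq (GRCh38.p14), used for names, and 0 symbols changed. The probe set with the highest mean stood for a gene, giving 18372 genes. Line means were fitted jointly over the 14 arrays with limma 3.58.1 in R 4.3.3 (7 residual degrees of freedom); the bone label was fitted on the 7 line means. Tests were two-sided with Benjamini-Hochberg adjustment over all genes, at 0.05. The scripts were tested on simulated data. Arrays give no counts, so their number limits the precision. Alternatives were quantile normalization, the replicate number as a block, only genes with mean log2 of at least 5, the mean of all probe sets, an intensity trend, leaving out each array and, for the bone label, PC3 lines alone.

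The members, lists and tests were chosen with earlier results of these data known. Named in a comparison were called members, at most 8 by size of change, with relatives of a called one as values; members with the 5 widest and 5 narrowest ranges; members with every line mean under 40; and from the other lipid genes at most 4 called ones per comparison. Between PC3 and DU-145 lines all 14 called members were named, 6 beyond that limit; these, INSIG1 and other members given beside them were named after their values were seen. Promoters shown were 5 of the members called most often, ties by range.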

Additional observations from a re-analysis of the deposited data

Results flagged for a closer look

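Dixon's test marked PC3-N(PDGFRα) as the outlying line in 3 members. It was run 62 times over the geometric line means, for the members in the 4 bone-metastatic lines and in the 5 PC3 lines. It marked 5 of the 62, and chance marks about 1 in 20. The 4 lines are among the 5, so the marks of PMVK and CYP51A1 in both sets are not independent. Some marks would arise by chance, so these do not by themselves set the line apart. PMVK was highest there, at 119.4, where the other 3 bone-metastatic lines lay between 93.9 and 97.1 and the other 4 PC3 lines between 90.1 and 97.1. CYP51A1 was lowest there, at 51.1, where both sets of other lines lay between 65.6 and 68.6. DHCR7 was lowest there, at 125.7, where the other bone-metastatic lines lay between 156.2 and 161.9. None of the 3 was called against PC3-N on the values as deposited.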

How the results depend on the processing

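No called member changed direction under the alternatives run. For the bone label, where none was called, PC3 lines alone gave the opposite sign for 13 of 31 members; the members' median log2 change was 0.06 with 17 higher, against -0.02 with 12 higher over the 7 lines. For the counts of called members, the alternatives other than leaving out an array moved 2 comparisons by over 1.5 times. In PC3-N(PDGFRα) against PC3-N the count was 1 after quantile normalization, against 0. In Clone 1 against Clone 3 it was 8 among genes with mean log2 of at least 5 and 7 with an intensity trend, against 4. Leaving out each array in turn gave 3 to 6 called members for Clone 1 against PC3-ML (8 with all arrays), 0 to 3 for Clone 3 against PC3-ML (4), 1 to 3 for Clone 1 against Clone 3 (4) and 9 to 15 for PC3 against DU-145 lines (14). It gave 0 to 1 for PC3-N(PDGFRα) against PC3-N, 0 to 2 for DU-145 (PDGFRα) against DU-145, 12 to 20 for any difference among the lines (14), and 0 to 0 for PC3-ML against PC3-N, for the difference between the effects of overexpression and for the bone label. The lone array is then assumed to vary like those of other lines, and fewer arrays enter the fit. In the comparisons of the clones and of the backgrounds, the calls over all genes fell too. With the replicate number as a block, 8 members were called in Clone 1, 4 in Clone 3, 5 between the clones (EBP added, adjusted p = 0.0416), 14 between backgrounds, 14 over all lines, and 0 in the other comparisons of lines. The deviations of same-numbered arrays correlated at -0.20 to 0.24 over 21 pairs of lines, with a median of 0.04 and 5 above 0.1. The labels do not pair the samples by number, and whether some same-numbered arrays share a batch was not tested. Genes near the floor and 2 arrays a line limit what could be seen.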
